A study of Macaca mulatta with 60 samples.

Results

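Transcript levels in the right atrium (RA) of female rhesus monkey (Macaca mulatta) fetuses were compared between late gestation (LG) and early gestation (EG) in control animals. The members are 6 of the 60 arrays of the series, chosen by their titles as RA, control and either EG or LG. They are 3 EG fetuses (numbers 1, 2 and 3) and 3 LG fetuses (numbers 7, 8 and 9), each a different animal. The series holds 5 tissues, each with fetuses numbered 1 to 12, and was made to study maternal exposure to bisphenol A (BPA), a chemical of plastics. The dams of the control fetuses were given fruit with the ethanol vehicle only, in EG from day 50 to day 100 ± 2 and in LG from day 100 ± 2 to term. A caesarian section ended the EG pregnancies when that window closed, and LG fetuses were collected at necropsy after vaginal delivery. Gestational age, the route of delivery and the dosing window therefore differ together between the groups and cannot be told apart. The exposed fetuses used below for comparison had dams given 400 µg BPA per kg body weight daily in the same windows, with 3 fetuses in each.

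The right atrium receives the venous return and holds the pacemaker of the heart. Before birth the heart grows largely by division of its muscle cells and burns mainly sugar and lactate. Towards and after birth its muscle cells leave the cell cycle and thyroid hormone rises, and after birth fatty acids become a main fuel. The pyruvate dehydrogenase complex stands at the switch between these fuels, and the pyruvate dehydrogenase kinases turn it off.

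The values are log2 expression values, 1 for each of 26149 transcripts, normalized over the 12 RA arrays together. Those arrays shared a slide, so no comparison within RA crosses slides. The medians of the 6 control arrays lay between 7.03 and 7.11. Pairs of arrays of the same group correlated at 0.948 to 0.974 across transcripts, and an EG with an LG array at 0.937 to 0.972. Transcripts were named only through the descriptions printed in the study's tables. Those cover 582 transcripts of the file, listed because they met the study's criteria for a BPA effect in some chamber or were assayed by PCR, so they are no random sample of RA transcripts. RA tissue is a mixture of cells, and fewer cells of a type cannot be told apart from less RNA per cell.

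Most described markers of atrial muscle were high. Myh6 (alpha myosin heavy chain, the fast motor protein of atrial muscle) lay at the 99.9th percentile of its arrays in both groups, with means of 14.43 in EG and 14.64 in LG. Bone morphogenetic protein 10, a secreted growth factor that the adult heart makes almost only in the right atrium, lay at the 97.8th percentile in EG RA and the 98.5th in LG RA. In the left atrium (LA) of the same fetuses it lay at the 23.6th and 19.9th percentiles. KCNA5, the potassium channel of the atrial ultrarapid current, lay at the 72.5th and 76.6th percentiles in RA. KCNN2, another potassium channel of the same list, was low, at the 25.3rd and 29.2nd percentiles. Myh6 does not set the atrium apart in LG, since it also lay at the 99.9th percentile in the LG left ventricle, against the 49.2nd in EG.

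A transcript was tested if its interquartile range over the 12 RA arrays was at least 0.5, which left 9329. It was called changed at a Benjamini-Hochberg adjusted p of at most 0.05 by limma when the group means also differed by 1 or more on the log2 scale. By this rule 187 of 9329 transcripts were called, which is 2.00%. Of these, 59 rose from EG to LG (0.632%) and 128 fell (1.37%). In all 187 the EG and LG fetuses did not overlap, which the call rule nearly fixes and which held for 17.5% of all tested transcripts, and the median size of the change was 2.02 on the log2 scale. The study's own criteria for BPA effects, an unadjusted p of at most 0.01 with the same fold threshold, were met by 510 transcripts (5.47%), 188 higher (2.02%) and 322 lower (3.45%) in LG. The number of calls depended on which fetuses were included. It was 8 without LG fetus 8, 37 without EG fetus 1, 61 without EG fetus 3, 67 without LG fetus 9, 148 without EG fetus 2 and 174 without LG fetus 7, and 40 when only the 6 control arrays were fitted. In each of these fits all 187 transcripts kept their direction and met the unadjusted criteria. The 187 were chosen on these same arrays at a stricter threshold, which largely fixes that outcome.

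**Figure D1:**
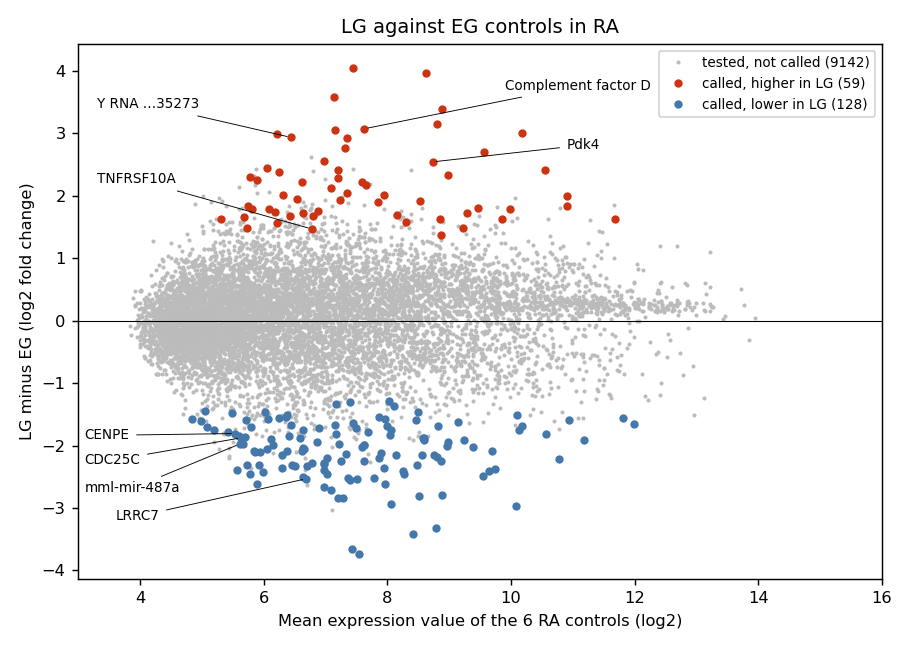
Each point is 1 of the 9329 tested transcripts, with the mean expression value of the 6 RA controls (log2) on the horizontal axis and the LG minus EG difference of group means (log2 fold change) on the vertical axis. Called transcripts are coloured, 59 higher in LG and 128 lower, and the 8 with a description are labelled.

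Of the described transcripts, 395 were tested and 8 were called (2.03%), 4 in each direction, which is a share like that over all tested transcripts. The 4 that rose were Pdk4, complement factor D, TNFRSF10A and a Y RNA. The 4 that fell were CENPE, CDC25C, LRRC7 and mml-mir-487a. Only LRRC7 among them came from a table of BPA effects in RA itself, which was made with the EG control arrays used here. By limma, none of the 8 was called without EG fetus 1 (adjusted p 0.0542 to 0.16) or without LG fetus 8 (0.0634 to 0.2), and 2 of 8 were called without EG fetus 3 or without LG fetus 9. For a single transcript, 3 against 3 fetuses allow 10 splits, so an exact two-sided permutation test reaches no p below 0.1, and each of the 8 was at 0.1.

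**Figure D2:**
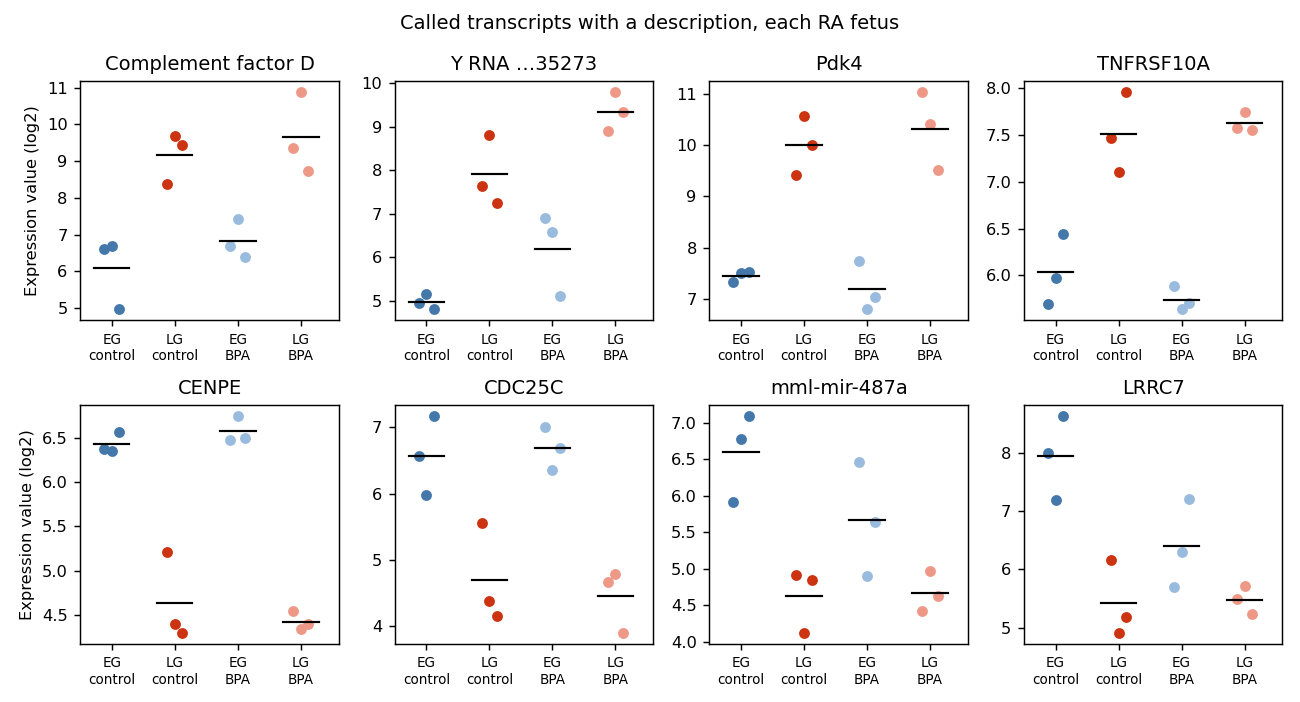
Expression values (log2) of the 8 called transcripts with a description in each of the 12 RA fetuses. Points are fetuses and bars are group means of 3, and in every panel the LG controls lie wholly above or wholly below the EG controls.

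Among the genes of fuel use, Pdk4 rose. It encodes pyruvate dehydrogenase kinase 4, which switches off the oxidation of sugar-derived pyruvate. Its expression values were 7.33, 7.51 and 7.53 in the EG fetuses and 9.42, 10.57 and 10.01 in the LG fetuses. All LG fetuses lay well above the EG fetuses, and the EG fetuses lay close together. The log2 fold change was 2.54 with an SE of 0.44 (limma, adjusted p = 0.0107), a 5.83-fold higher level in LG. Pdk4 moved from the 54.2nd to the 82.6th percentile of the array.

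The other measured fuel genes did not pass the test. Of the list of 7, 5 were tested, only Pdk4 was called, against 2.00% of all tested transcripts, and the median change over all 7 was 0.10. Fatty acid-binding protein, a cytosolic carrier of fatty acids, differed by 0.90 ± 0.82 (SE, 3 fetuses a group). Its values were 11.26, 9.24 and 11.12 in EG and 12.56, 12.17 and 9.61 in LG, so the groups overlapped, with EG fetus 2 and LG fetus 9 low. Every SE of an RA change here is from limma, which moderates it and estimates it over all 12 RA arrays. It is therefore not the spread of the printed control values alone. Hexokinase-2, the insulin-regulated hexokinase of muscle, differed by -0.03 ± 0.54. The sugar phosphate exchanger 2 differed by -0.28 ± 0.43, and SLC25A33, a mitochondrial nucleotide carrier, by 0.16 ± 0.34. Gyg1, the primer of glycogen synthesis, differed by 0.10, and MOGAT1, an acyltransferase of triglyceride synthesis, by -0.20, and neither varied enough to be tested.

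Thrb, the beta receptor for thyroid hormone, had values of 7.88, 7.63 and 7.25 in EG and 9.08, 8.59 and 9.02 in LG. The groups did not overlap, but the difference of 1.31 ± 0.35 (SE) met only the study's unadjusted criteria (limma, adjusted p = 0.0786). NR4A1, an immediate early nuclear receptor, had 7.15, 6.75 and 6.97 in EG and 8.95, 8.79 and 7.15 in LG, with LG fetus 9 at the level of the EG fetuses. Its difference was 1.34 ± 0.56 (adjusted p = 0.304 by limma), and it was described because of a BPA effect in LG RA. CRABP1, a cytosolic binder of retinoic acid, spread from 4.38 to 9.23 among the LG fetuses alone. RARRES3, SRD5A1 and HNF4G differed by 0.15, -0.22 and -0.29 and did not vary enough to be tested. In all, 3 of the 6 measured genes of hormone receptors and retinoids were tested and none was called, which at 2.00% of all tested transcripts is no result about the list. Their median change was 0.00, but 0.41 without LG fetus 8, 0.37 without LG fetus 9 and 1.31 over the members that were tested. The filter on variation favours members that differ between the groups, which tends to raise the size of that last median.

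Genes of dividing cells were lower in LG without exception among those described. CENPE, the centromere-associated kinesin that moves chromosomes to the spindle equator, had values of 6.38, 6.36 and 6.57 in EG and 5.21, 4.39 and 4.29 in LG. It fell by 1.81 on the log2 scale (SE 0.33; limma, adjusted p = 0.0143). CDC25C (M-phase inducer phosphatase 3), which activates the kinase that starts mitosis, had 6.56, 5.97 and 7.18 in EG and 5.55, 4.38 and 4.16 in LG. It fell by 1.88 (SE 0.44; limma, adjusted p = 0.045), and was not called without the filter on variation (adjusted p = 0.07). In both genes LG fetus 7 was the highest of the LG fetuses, though still below all EG fetuses. The LG means lay at the 15.6th percentile for CENPE and the 16.2nd for CDC25C, within the range of the described olfactory receptors (genes of another tissue, 2.6th to 22nd percentile), and the distance to background is unknown, so the size of these falls is uncertain.

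Citron kinase, which acts in cytokinesis, had values of 8.47, 7.86 and 8.92 in EG and 7.54, 5.95 and 6.39 in LG. Its difference of -1.79 ± 0.55 (SE) met only the study's unadjusted criteria (limma, adjusted p = 0.128). TTK, a kinase of the spindle checkpoint, had 6.16, 5.19 and 5.11 in EG and 4.56, 4.74 and 4.61 in LG, with a difference of -0.85 ± 0.36 (adjusted p = 0.313 by limma), and of -0.52 without EG fetus 1. The EG and LG fetuses thus did not overlap in any of the 4 genes, whereas 8.39% of all transcripts of the file were lower in LG without overlap. The median change of the 4 was -1.80. The mean value over the 4 genes was 6.35 to 6.94 in the EG fetuses and 4.86 to 5.71 in the LG fetuses. All 4 were described because of the same table of BPA effects in the LG left ventricle, so they were not chosen independently of each other.

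Complement factor D, the serine protease that starts the alternative complement pathway and is made by fat cells and macrophages, showed the largest rise among described transcripts. Its values were 6.61, 6.69 and 4.97 in EG and 8.37, 9.69 and 9.44 in LG. The groups were far apart, with EG fetus 3 lowest. The log2 fold change was 3.08 with an SE of 0.60 (limma, adjusted p = 0.019), an 8.43-fold higher level in LG. TNFRSF10A, a death receptor for the cytokine TRAIL, had 5.69, 5.97 and 6.45 in EG and 7.47, 7.10 and 7.95 in LG. It rose by 1.47 (SE 0.33; limma, adjusted p = 0.0385), and was not called with any 1 of the 6 fetuses left out (adjusted p 0.0521 to 0.16).

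These genes belong to a list of 27 described genes of white blood cells and immunity, of which 19 were tested, 2 were called and 3 met the unadjusted criteria, all higher in LG, where 0.632% and 2.02% of all tested transcripts did so. The third was beta-defensin 1, an antimicrobial peptide, with 9.86, 9.18 and 7.90 in EG and 10.60, 11.04 and 9.89 in LG (difference 1.53 ± 0.45, adjusted p = 0.116 by limma, and 0.99 without EG fetus 3). It was described because of a BPA effect in EG RA, so its EG control values were part of that choice. Cathepsin S, a protease of antigen presenting cells, had 6.32, 6.75 and 4.51 in EG and 6.86, 7.28 and 8.11 in LG (difference 1.56 ± 0.54, adjusted p = 0.194 by limma, and 0.88 without EG fetus 3). PSTPIP2, an actin regulator of macrophages, differed by 1.05 ± 0.43, and APBB1IP, an adaptor of integrin activation in blood cells, by 1.23 ± 0.52. Neither passed the test.

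Of the 27, 8 lay higher in LG without overlap and 1 lower, against 5.89% and 8.39% of all transcripts, and the median change was 0.26. A set of 12 white blood cell markers within this list had mean values of 5.56 to 5.88 in the EG fetuses and 6.02 to 6.37 in the LG fetuses. Of these 12, 5 lay higher in LG without overlap, none lay lower without overlap, and none was called. In the exposed fetuses 4 of the 12 lay higher in LG without overlap and 0 lower, but only 1 did so in both comparisons. The part of white blood cell content in the values of complement factor D and TNFRSF10A was not tested.

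EG fetus 3 stood apart from the other EG fetuses in several transcripts of blood and immune cells, in both directions. ALAS2, the first enzyme of heme synthesis in red cell precursors, had values of 8.24, 7.95 and 12.33 in the EG fetuses and 7.45, 9.46 and 7.20 in the LG fetuses. Krueppel-like factor 1, an erythroid transcription factor, had 4.99, 5.08 and 6.95 in EG and 4.54, 5.02 and 4.33 in LG. CAMPATH-1 antigen (CD52) of lymphocytes and monocytes had 8.01, 7.68 and 11.95 in EG, and an IFIT1-like protein, from a family induced by interferon, had 5.20, 5.42 and 11.25. The highest EG value was that of fetus 3 in each of these 4 transcripts. Fetus 3 was instead the lowest EG fetus in complement factor D, cathepsin S and beta-defensin 1, and the mean over the 27 genes of white blood cells and immunity was 5.68 to 5.83 in the EG fetuses. ALAS2, Krueppel-like factor 1, CAMPATH-1 antigen and the IFIT1-like protein were not called, and the difference of ALAS2 was -1.47 ± 0.93 with all fetuses and -0.06 without EG fetus 3. That of the IFIT1-like protein was -1.57 ± 1.21 with all fetuses and 0.42 without EG fetus 3. In the LA, fetus 3 had the highest EG value of ALAS2 (9.93), CAMPATH-1 antigen (9.93) and the IFIT1-like protein (8.59), but not of Krueppel-like factor 1 (5.26).

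Of the 6 described genes of atrial and heart muscle 3 were tested and none was called, a count that at the 2.00% over all tested transcripts says nothing of the list. Myh6 differed by 0.21, bone morphogenetic protein 10 by 0.27 and KCNA5 by 0.35, and these 3 varied too little to be tested. Scanner gains had let the brightest probes saturate, and Myh6 and bone morphogenetic protein 10 lay near the top of the arrays, so saturation may have narrowed their differences, which was not tested. DHRS7C, a reductase of the muscle sarcoplasmic reticulum, had values of 11.31, 11.27 and 9.56 in EG and 12.10, 12.48 and 11.86 in LG. The groups did not overlap, and the difference of 1.43 ± 0.44 (SE) met only the unadjusted criteria (limma, adjusted p = 0.127). It was described because of a BPA effect in EG RA, and without EG fetus 3 the difference was 0.85. Myosin-11, the smooth muscle myosin heavy chain, had 7.84, 7.31 and 8.13 in EG and 10.94, 8.09 and 7.93 in LG, where LG fetus 7 stood alone and without it the difference was 0.25. KCNN2, a small conductance potassium channel, differed by 0.22 ± 0.47. All 6 differences were above 0, with a median of 0.31.

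In the list of 12 matrix and growth factor genes, 9 were tested, none was called and 2 met the unadjusted criteria in opposite directions, against 2.00% called and 5.47% meeting the criteria over all tested transcripts. Adam12, a membrane metalloprotease of remodelling tissue, had values of 8.67, 8.19 and 8.48 in EG and 6.97, 7.59 and 7.38 in LG. Its difference was -1.13 ± 0.32 (SE; limma, adjusted p = 0.0994). Adam12 was called without the filter on variation (adjusted p = 0.0472) and with array weights (adjusted p = 0.0479). HTRA3, a secreted serine protease, had 6.94, 5.95 and 7.71 in EG and 7.88, 7.91 and 8.88 in LG (difference 1.36 ± 0.46, adjusted p = 0.179 by limma, and 0.90 without EG fetus 2). PDGFC, a growth factor for fibroblasts, and WISP2, a secreted protein of the CCN family, also did not overlap between the groups, with differences of -0.57 and 0.27. In all, 2 of the 12 lay higher and 2 lower in LG without overlap, against 5.89% and 8.39% of all transcripts. Connective tissue growth factor differed by -0.76 ± 0.55, and EFEMP1 (fibulin-3) by 0.12 ± 0.44. The median over the 12 was -0.06.

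LRRC7 (densin-180), a scaffold protein best known from synapses, fell. Its values were 8.00, 7.20 and 8.65 in EG and 6.17, 4.91 and 5.18 in LG, and its log2 fold change was -2.53 with an SE of 0.48 (limma, adjusted p = 0.0173). It was listed with 11 other described genes of neurons. Of the 12, 5 were tested and LRRC7 alone was called, against 2.00% of all tested transcripts. Secretogranin-3, a protein of secretory granules, had 5.51, 5.64 and 5.80 in EG and 4.87, 4.96 and 4.83 in LG, and contactin-6, an adhesion protein, had 5.70, 5.15 and 4.48 in EG and 4.43, 3.91 and 4.28 in LG. Their differences were -0.77 ± 0.31 and -0.90 ± 0.44, and neither passed the test. Tubulin beta-3, a tubulin of neurons, differed by -0.16 and was not tested. Over the 12 genes the median was -0.25, and over the 11 without LRRC7 it was -0.16.

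CTNND2 (delta-catenin) in the same list had values of 8.41, 4.73 and 5.44 in EG and 7.63, 7.86 and 7.78 in LG. EG fetus 1 lay above all LG fetuses while the other EG fetuses lay far below, and the difference was 1.56 ± 0.69 (adjusted p = 0.331 by limma). Without EG fetus 1 it was 2.67 and was called (adjusted p = 0.0219). Among described proteins outside the lists, alcohol dehydrogenase class 4, which oxidizes retinol and ethanol, had 4.86, 5.19 and 4.82 in EG and 6.58, 6.48 and 6.17 in LG. Its difference of 1.45 ± 0.40 met the unadjusted criteria (adjusted p = 0.0867 by limma). An uncharacterized CD177P fragment met them in the other direction (-1.30 ± 0.42, adjusted p = 0.155 by limma). The 7 described olfactory receptors, genes of another tissue, had a median change of -0.07 and a range of -0.30 to 0.21. Their group means lay between the 2.6th and the 22nd percentile of the arrays, so they could hardly have fallen. Only 1 of them was tested, and it was not called.

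**Figure D3:**
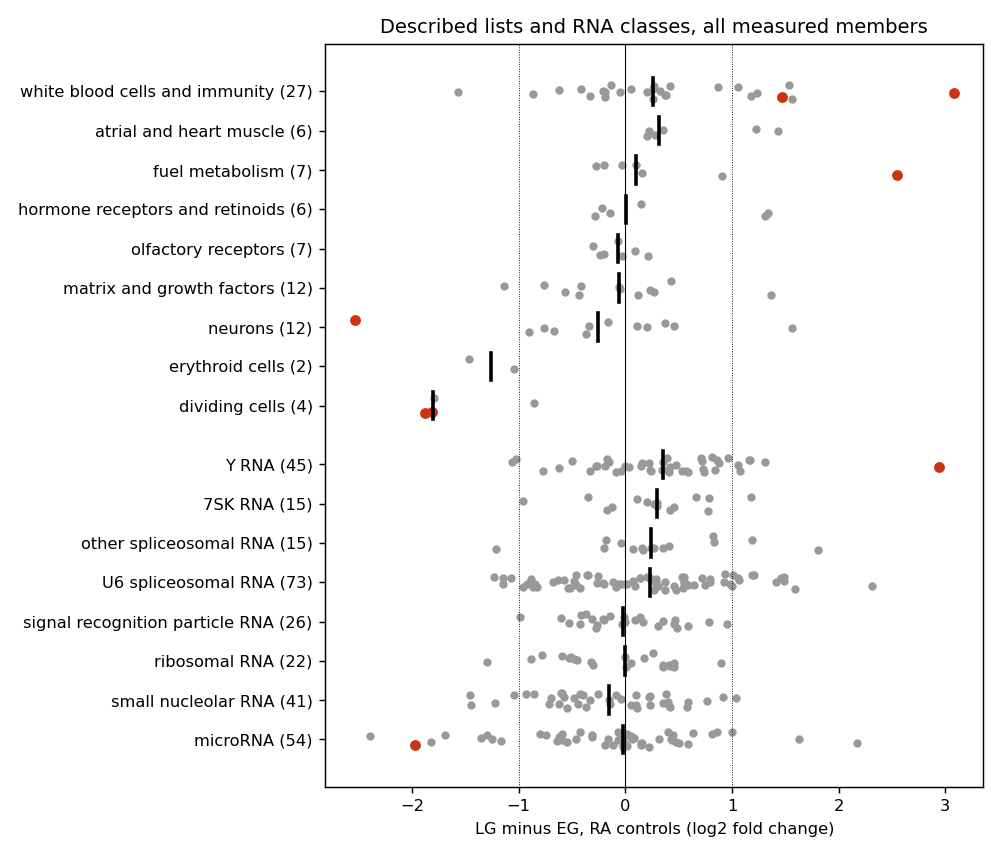
LG minus EG change (log2 fold change, horizontal axis) of every measured member of 9 described gene lists and of the 8 RNA classes with 15 or more members in RA controls, with the number of members in parentheses. Grey points are members that were not called, red points are called members, black bars are medians and dotted lines mark a change of 1 in either direction. The 4 genes of dividing cells lie at -0.85 or lower, while the medians of these RNA classes lie between -0.15 and 0.36.

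Small and other non-coding RNAs make up 296 of the described transcripts, and 258 of them were tested. Most belong to multicopy families (U6 and other spliceosomal RNAs, Y RNAs, 7SK and signal recognition particle RNAs), and copies with near-identical sequences may share signal. Their spread between fetuses of a group was larger, with a median SD of 0.678 against 0.391 for the 286 described proteins. Of the 258 tested, 2 were called (0.775%) and 8 met the unadjusted criteria (3.1%), below the 2.00% and 5.47% over all tested transcripts. The 100 tested proteins with a name had 6 calls.

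A Y RNA (ENSMMUT00000035273), one of the small RNAs bound by the Ro protein, had values of 4.94, 5.15 and 4.80 in EG and 7.64, 8.82 and 7.25 in LG. It rose by 2.94 (SE 0.50; limma, adjusted p = 0.0107), from the 22.8th to the 59.4th percentile of the array. It was the only called member among 45 described Y RNAs, of which 31 were higher and 14 lower in LG, with a median change of 0.36. That median was 0.15 without EG fetus 1 and 0.67 without EG fetus 2. Mml-mir-487a, a microRNA of a large imprinted cluster, had 5.91, 6.78 and 7.10 in EG and 4.91, 4.12 and 4.84 in LG. It fell by 1.97 (SE 0.44; limma, adjusted p = 0.0374), and was not called without the filter on variation (adjusted p = 0.0584) or with any 1 of the 6 fetuses left out. Its LG mean also lay at the 16.2nd percentile. Mml-mir-25, of a cluster within a replication gene, had 6.22, 7.07 and 5.52 in EG and 3.66, 5.00 and 4.69 in LG (difference -1.82 ± 0.54, adjusted p = 0.118 by limma).

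The remaining small RNAs that met the unadjusted criteria were a small nucleolar RNA, 2 spliceosomal RNAs and 2 microRNAs. SNORD81, a box C/D small nucleolar RNA that guides methylation of ribosomal RNA, had very even values of 6.40, 6.51 and 6.33 in EG and 4.92, 5.00 and 4.95 in LG (difference -1.46 ± 0.47). A U4 RNA (ENSMMUT00000037632) differed by 1.19 ± 0.37 and a U6 RNA (ENSMMUT00000037746) by 1.48 ± 0.44. Unnamed microRNAs differed by 2.17 ± 0.54 (ENSMMUT00000049708) and -1.30 ± 0.39 (ENSMMUT00000050965). Some of these gained a call in other fits by limma. The U6 RNA did so with array weights (adjusted p = 0.0399) and without EG fetus 2 (0.0268). ENSMMUT00000049708 did so at a stricter filter on variation (adjusted p = 0.0439 by limma), with array weights (0.0205) and without LG fetus 9 (0.0438). By class, the medians were 0.23 for 73 U6 RNAs, 0.30 for 15 7SK RNAs, -0.02 for 54 microRNAs and -0.15 for 41 small nucleolar RNAs, beside -0.01 for all transcripts of the file and 0.09 for those tested. Mml-mir-205 and mml-mir-224, which the study listed, had means near the lowest values of the arrays and differed by -0.07 ± 0.58 and -0.43 ± 0.35.

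The same gestational comparison was available in RA of BPA exposed fetuses, which are other animals on the same slide, with 3 EG and 3 LG fetuses. There 231 transcripts were called (2.48%), 94 higher (1.01%) and 137 lower (1.47%) in LG. Of the 187 transcripts called in controls, 186 had the same direction in the exposed fetuses, while 59.6% of all tested transcripts had the same direction. Of the 187, 177 did not overlap in that direction in the exposed fetuses, where 8.99% of all transcripts of the file were higher and 8.50% lower in LG without overlap. Both comparisons called 135 transcripts with the same direction, which is 72.2% of the calls in controls and 58.4% of those in exposed fetuses. The 2 comparisons share their variance estimate, the slide and the normalization, so they are not fully independent. The difference between exposed and control changes was called for 0 transcripts (limma, smallest adjusted p 0.998), with 250 at an unadjusted p of at most 0.05.

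Named transcripts followed this pattern in part. In exposed fetuses Pdk4 rose by 3.13 (limma, adjusted p = 0.00368), complement factor D by 2.82 (0.024), TNFRSF10A by 1.88 (0.00969) and the Y RNA ENSMMUT00000035273 by 3.15 (0.00522). CENPE fell by 2.16 (limma, adjusted p = 0.00422) and CDC25C by 2.23 (0.0182). LRRC7 and mml-mir-487a were not called there, with changes of -0.92 ± 0.48 and -0.999 ± 0.44. The EG exposed values of LRRC7 were 5.69, 6.30 and 7.21, below or barely above the lowest EG control, a difference that had led to its description. Alcohol dehydrogenase class 4 and HTRA3 were called in exposed fetuses, with rises of 2.59 (limma, adjusted p = 0.00428) and 1.99 (0.0345). Thrb and Adam12 differed by 0.67 ± 0.35 and -0.77 ± 0.32 there, and in both genes the exposed EG and LG fetuses did not overlap.

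Proteins and small RNAs can be set side by side by this measure. Of the 46 described proteins whose EG and LG controls did not overlap, 22 (47.8%) also did not overlap in the same direction in exposed fetuses. Of the 33 small and non-coding RNAs, 2 did (6.06%), the Y RNA ENSMMUT00000035273 and a 7SK RNA. Over all transcripts of the file the figures were 1320 of 3735 (35.3%), where 14.3% of transcripts did not overlap in controls. The difference between the shares was not tested. In exposed fetuses the U4 RNA ENSMMUT00000037632, the U6 RNA ENSMMUT00000037746, mml-mir-25 and SNORD81 differed by -0.44, -0.13, -0.40 and -0.50.

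**Figure D4:**
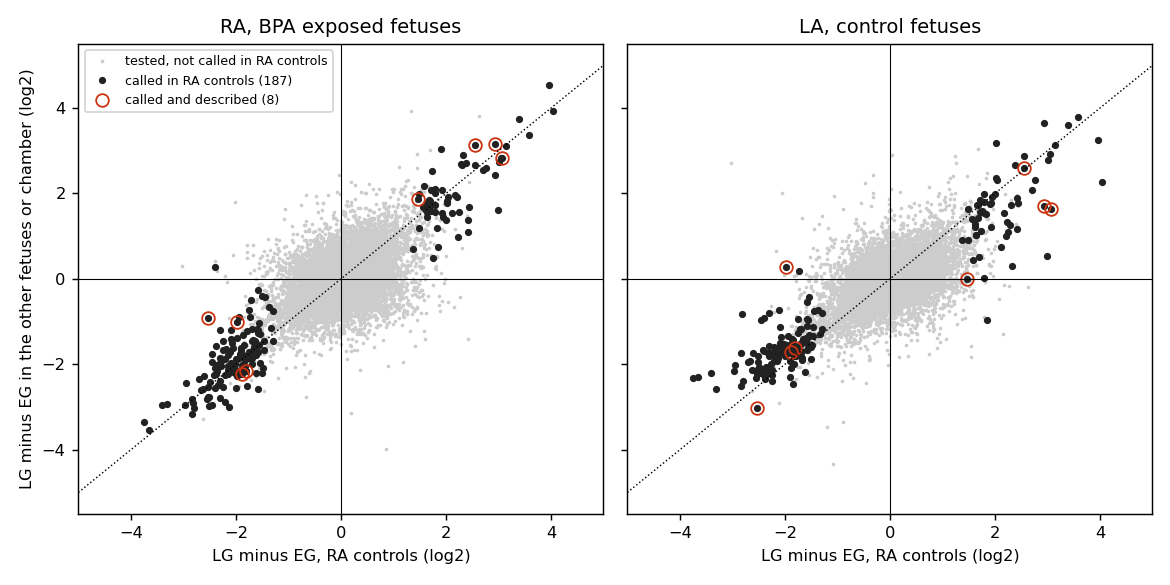
LG minus EG change (log2) of the 9329 tested transcripts in RA controls on the horizontal axis, against the same change in RA of BPA exposed fetuses (left) and in LA of the control fetuses (right). Black points are the 187 transcripts called in RA controls, red rings mark the 8 with a description and the dotted line marks equal changes. Of the black points 186 have the same direction in exposed RA and 184 in LA.

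The LA came from the same control fetuses and was prepared with the same amplification on another slide. In LA controls 197 of 7903 tested transcripts were called (2.49%), 66 higher (0.835%) and 131 lower (1.66%) in LG. Of the 187 RA calls, 184 had the same direction in LA, against 63% of all transcripts tested in RA. Both chambers called 110, which is 58.8% of the RA calls and 55.8% of the LA calls. The difference between the chambers was tested directly without pairing by fetus, and 1 of 11832 transcripts was called (0.00845%), which has no description. With the fetus as a block, 0 were called by limma (smallest adjusted p 0.111), with 594 at an unadjusted p of at most 0.05.

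Among the 8 called and described transcripts, Pdk4 differed least between the atria, with changes of 2.54 in RA and 2.59 in LA. CENPE and CDC25C fell in LA by 1.62 (limma, adjusted p = 0.0442) and 1.72 (0.0224). LRRC7 fell in LA by 3.02 (limma, adjusted p = 0.0257), and citron kinase by 2.36 (0.0247). The Y RNA ENSMMUT00000035273 was not called in LA, where its change was 1.71 ± 0.68 (limma, adjusted p = 0.219) and the RA minus LA difference 1.23 ± 0.90. Complement factor D rose less in LA, by 1.63 (limma, adjusted p = 0.0413), but the difference of 1.45 ± 0.74 between the chambers did not pass the test. For TNFRSF10A the LA change was 0.00 and the RA minus LA difference 1.47 ± 0.47. For mml-mir-487a the LA change was 0.29 and the difference -2.26 ± 0.66. Neither difference passed the test over all transcripts (adjusted p = 1 in limma for both). TNFRSF10A was described because of a BPA effect in EG LA and complement factor D because of one in LG LA, so LA control values were part of those choices.

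The other tissues came from fetuses of the same numbers and were normalized separately. There the direction of most called and described transcripts recurred, with mml-mir-487a as an exception. Pdk4 was higher in LG by 3.53 ± 0.84 in the right ventricle (RV), 3.47 ± 0.87 in the left ventricle (LV) and 2.86 ± 0.70 in biceps femoris muscle (BFM). Complement factor D was higher by 2.48 ± 0.69, 4.15 ± 0.80 and 3.11 ± 0.50 in RV, LV and BFM. CENPE was lower in LG in each of these, with changes of -1.97 ± 0.24, -1.75 ± 0.33 and -1.34 ± 0.21. Adam12 differed by -1.87 ± 0.29, -1.88 ± 0.26 and -2.51 ± 0.32 there, beside -1.13 in RA. Thrb differed by 0.59 ± 0.68 in RV, 0.33 ± 0.32 in LV and 2.94 ± 0.32 in BFM. TNFRSF10A and the Y RNA ENSMMUT00000035273 lay above 0 in RV, LV and BFM, and CDC25C and LRRC7 below. Mml-mir-487a differed by -0.44 ± 0.34 in RV, 1.97 ± 0.95 in LV and -5.24 ± 0.55 in BFM, so its direction in LV was opposite to that in RA. Mml-mir-487a and the genes of dividing cells were described because of BPA effects in LG LV, so the LG LV controls were part of that choice. These changes are given as values with their SE and without a call.

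**Figure D5:**
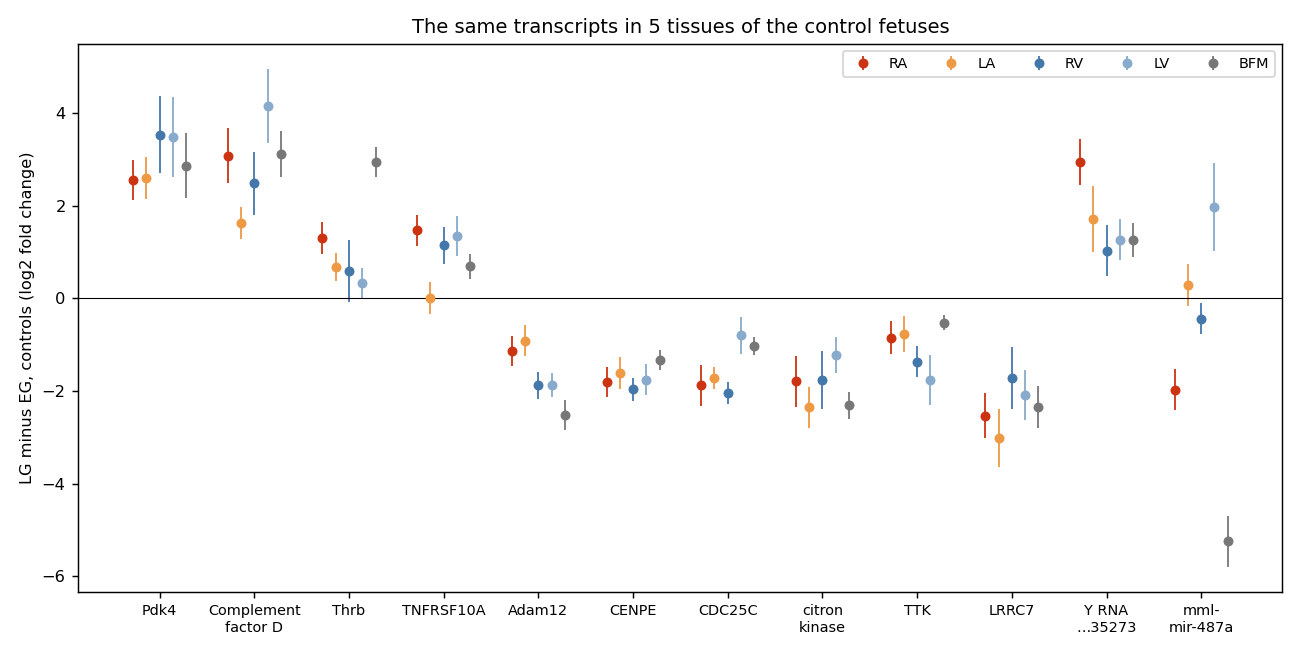
LG minus EG change (log2 fold change) of 12 named transcripts, the 8 called and described ones among them, in RA, LA, RV, LV and BFM of the control fetuses. Points are differences of group means of 3 fetuses each and bars are the SE from limma. Pdk4 and complement factor D lie above 0 and the 4 genes of dividing cells below 0 in all 5 tissues, while mml-mir-487a lies on both sides of 0.

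Most of the 187 calls carry no description. The largest rises among them were ENSMMUT00000003255 (4.04 ± 0.36; limma, adjusted p = 0.000188) and ENSMMUT00000012750 (3.97 ± 0.44; 0.00171). ENSMMUT00000003255 had values of 5.23, 5.30 and 5.72 in EG and 8.95, 9.61 and 9.82 in LG. The largest falls were ENSMMUT00000033397 (-3.74 ± 0.50; limma, adjusted p = 0.00448) and ENSMMUT00000040441 (-3.65 ± 0.57; 0.00805). ENSMMUT00000033397 had 9.16, 9.20 and 9.87 in EG and 6.72, 5.10 and 5.18 in LG. Called transcripts that rose had a median at the 38.4th percentile of the array in EG and the 68.5th in LG, and those that fell went from the 64.8th to the 40th.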

How the data were processed

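Expression values on the log2 scale were deposited by the authors, who derived them from a custom NimbleGen array designed on Ensembl transcripts of the Mmul_1 rhesus genome, by robust multi-array averaging within each tissue (background correction, quantile normalization and a summary of the probes). Protein-coding transcripts had several probes and small RNAs at most a pair, which limits the precision of the latter. RA and LA cDNA was amplified by PCR before labelling, which can compress or distort levels, and scanner gains let some probes saturate. Scanner intensities were not used here, so the distance to background is unknown, and precision is limited by how few arrays there are.

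Transcripts were named through the study's tables (584 described, 582 in the file), in which the digit count of 66 identifiers was repaired. No transcript sequences were used, and the value of 1 listed transcript is not reported here. The 4 group means of the 12 RA arrays were fitted by the linear models of limma 3.58.1 (R 4.3.3, moderated with eBayes), because the design needs a shared variance estimate for 3 fetuses a group. A list was described by the median over all measured members and its counts. The rule named every transcript in the main tables of the study, described transcripts that passed either set of criteria, up to 4 leading members of each list and all members of short ones, and the 2 largest rises and falls without a description. Blood-related transcripts of EG fetus 3 and the values in other tissues were picked after their values were seen. The members and lists were chosen with earlier results of these data known.

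A number was taken to mark the same animal in RA and LA, and this was not checked for the other tissues. The deviations of its RA and LA arrays from their group means had a median correlation of 0.212 (over 0.1 in 10 of 12 fetuses), and the median between unlike numbers was -0.0181. In simulated RA arrays, 200 transcripts drawn from all 26149 were shifted by 2 on the log2 scale in the LG controls, and 9012 transcripts passed the filter. Of the 200, 85.5% were recovered, and 12 unshifted ones were called. The simulated noise was normal and independent between transcripts, which that of real arrays need not be. At the study's unadjusted criteria 95% were recovered and 78 unshifted ones met them. Alternatives covered filters, normalization, variance priors, array weights (statmod 1.5.0), call rules and each fetus left out. Figures were drawn in Python with matplotlib 3.10.9.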

Additional observations from a re-analysis of the deposited data

Results flagged for a closer look

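ENSMMUT00000016026, a transcript without a description, was called for a difference between the atria in its change from EG to LG, but only in the fit without pairing by fetus. In LA controls it went from 9.37, 9.84 and 10.10 in EG to 5.35, 4.85 and 6.11 in LG, a change of -4.33 ± 0.39. In RA it went from 5.64, 6.11 and 5.30 to 4.55, 4.59 and 4.65, a change of -1.09 ± 0.39. Its RA means lay at the 34.1st percentile in EG and the 15.6th in LG, the latter within the range of the olfactory receptors. RA could therefore hardly have fallen as far as LA, which limits the meaning of the difference. The EG and LG fetuses did not overlap in either chamber. The RA minus LA difference of the changes was 3.25 ± 0.52 (limma, adjusted p = 0.0364) in the fit that treats RA and LA arrays as independent. In the limma fit blocked by fetus the adjusted p was 0.111, so it was not called there. In RA of exposed fetuses the change was -1.39.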

How the results depend on the processing

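The 187 calls in RA controls became 40 with only the 6 control arrays, 510 under the study's unadjusted criteria and 8 to 174 with each control fetus left out, and stayed within 1.5 times that number under the other alternatives (181 to 268). With the no-filter fit 149 of the 187 were shared. The 1 call for the RA minus LA difference became 0 with the fetus as a replicate block and 0 to 1 with each fetus left out. EG and LG groups within RA share no fetus, so no paired fit of the age comparison itself was possible. The 231 calls in exposed fetuses became 221 without the filter, and the 0 calls for the difference between exposed and control fetuses stayed at 0.

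Of 42 named transcripts, those that varied enough to be tested had 496 alternative values computed, and the untested ones had none. Of the 496 values, 43 lost a call, 8 gained one and 8 turned direction, all 8 among transcripts that were not called. Without EG fetus 3 the IFIT1-like protein went to 0.42 (range with each fetus left out -2.61 to 0.42) and CAMPATH-1 antigen to 0.75 (range -1.38 to 0.75, and 0.084 with array weights). CRABP1 ranged from -1.64 to 0.78 with each fetus left out, and was 0.00098 with array weights. Mml-mir-205 ranged from -0.37 to 0.31. Median centring and further quantile normalization moved no median of a list by more than its spread between fetuses.

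Medians over only the members that varied, an alternative added after the data were seen, were 1.23 for heart muscle, 1.31 for hormone receptors and retinoids, -0.42 for matrix and growth factors, -0.77 for neurons, 0.17 for ribosomal RNA, -0.33 for small nucleolar RNA and 0.84 for unspecified small nuclear RNA. Members pass that filter more easily when EG and LG differ, so these medians tend to be larger in size by the choice of members. With each fetus left out, medians ranged from -0.030 to 0.54 for 7SK RNA, 0.0073 to 0.41 for hormone receptors and retinoids, -0.15 to 0.086 for microRNA, -0.21 to 0.034 for ribosomal RNA, -0.40 to -0.10 for small nucleolar RNA, 0.011 to 0.67 for unspecified small nuclear RNA and 0.11 to 0.41 for white blood cells and immunity. They ranged from 0.15 to 0.67 for Y RNA, 0.085 to 0.23 for U6 RNA and -0.049 to 0.24 for fuel metabolism, within the spread between fetuses. For dividing cells they ranged from -2.17 to -1.56. Those of no other list or class moved by more than its spread. With 3 fetuses a group, the called changes closest to 0 were 1.38 and -1.28 on the log2 scale.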
